A study of Mus musculus with 24 samples.

Results

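The genes described here drive or mark the division cycle of the cell. The members are 45 genes listed by name, a list drawn up with earlier results of these data known, and every non-control probe carrying one of these names was taken: 84 of 56605 probes. They fall into 25 genes of G1 entry, replication and nucleotide supply and 20 mitotic genes. Of the 45, 43 passed the filter on dim signal and were measured among 23966 genes, 24 of the first class and 19 of the second. The probes for Bub1 (a checkpoint kinase) were well above background on 0 of 24 arrays and the probe for Ccne2 (cyclin E2) on 2 of 24, so these genes have no level here.

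Liver RNA was taken from 24 chow-fed males of the wild-type C57Bl/6J strain, aged 8 weeks, in 4 groups of 6. One group was fasted for 24 hours, and the other groups kept their chow and drank water with 20% glucose, water with 20% fructose, or plain tap water for 24 hours. Every mouse was killed at ZT16, a time in the dark phase. Each mouse gave 1 array, a 1-colour (Cy3) Agilent 8x60K mouse expression array, so the replicates of every comparison are 6 individual animals. Values are log2 signals relative to the 75th percentile of the same array, and a negative value is a signal below that percentile.

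A cell that enters the cycle makes D cyclins, which with Cdk4 start the release of E2F factors from pocket proteins such as Rb1. E2F factors then raise cyclin E, the helicase loaded at replication origins (Mcm2 to Mcm7), and the enzymes that make deoxynucleotides. Mitotic genes follow later, many of them through the DREAM and MuvB complexes, which bind CHR elements in promoters, together with NF-Y, which binds CCAAT boxes. Adult hepatocytes divide rarely, and their cycle genes are best known from liver regeneration after partial hepatectomy.

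The classes differed in the short motifs near their transcription starts, a property that no signal was used to find. Promoter windows of 300 bases, 250 before and 50 after the start, were taken from RefSeq (GRCm38.p6) for 35 of the 45 members, 39 windows in all, and were searched on both strands. An E2F motif (TTTGGCGC, TTTCCCGC, TTTGCCGC or TTTCGCGC) stood in 7 of 23 windows of G1 and replication members (30.4%) and in 1 of 16 windows of mitotic members (6.25%), against 2.26% of all 32851 windows. A CHR motif (TTTGAA or TTCGAA) stood in 13 of 16 mitotic windows (81.2%) and in 3 of 23 G1 and replication windows (13.0%), against 19.2% of all windows. The letters CCAAT stood in 14 of 16 mitotic windows (87.5%) and in 13 of 23 of the other class (56.5%), against 37.4% of all. A match is a description of letters and not of a bound site.

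The upstream bases of 6 members named in the results below are shown. Mcm5 and Mcm6 stand for the replicative helicase, and Cdk1, Mki67 and Top2a for the mitotic class. Cdk2 was the 1 member called on fructose against water, a call lost when some single arrays were left out. The Mcm5 stretch lies at chr8:75109339-75109508 (plus strand, 170 bases), the Mcm6 stretch at chr1:128359706-128359835 (minus strand, 130 bases) and the Cdk2 stretch at chr10:128705052-128705201 (minus strand, 150 bases). The Cdk1 stretch lies at chr10:69352913-69353062 (minus strand, 150 bases), the Mki67 stretch at chr7:135716380-135716579 (minus strand, 200 bases) and the Top2a stretch at chr11:99024190-99024389 (minus strand, 200 bases). Each is written 5′ to 3′ on the strand of its gene and ends at the base before the annotated start. Capitals mark the motifs on either strand: E2F in Mcm5, Mcm6, Cdk2 and Cdk1, CHR in Cdk1, Mki67 and Top2a, and CCAAT in all 6. Adjoining capitals in Mcm5 and Mcm6 are overlapping E2F motifs on opposite strands.
Mcm5: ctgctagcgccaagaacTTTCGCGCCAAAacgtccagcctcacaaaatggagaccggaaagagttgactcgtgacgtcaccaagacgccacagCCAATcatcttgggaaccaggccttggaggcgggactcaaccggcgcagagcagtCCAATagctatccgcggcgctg
Mcm6: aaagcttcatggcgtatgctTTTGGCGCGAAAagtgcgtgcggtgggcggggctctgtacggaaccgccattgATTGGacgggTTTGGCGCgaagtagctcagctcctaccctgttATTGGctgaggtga
Cdk2: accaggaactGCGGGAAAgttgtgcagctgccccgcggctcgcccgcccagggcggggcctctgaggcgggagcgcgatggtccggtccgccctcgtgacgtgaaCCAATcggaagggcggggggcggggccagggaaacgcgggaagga
Cdk1: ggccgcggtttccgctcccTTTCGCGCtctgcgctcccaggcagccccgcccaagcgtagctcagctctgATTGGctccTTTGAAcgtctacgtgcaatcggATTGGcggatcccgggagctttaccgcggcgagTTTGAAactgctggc
Mki67: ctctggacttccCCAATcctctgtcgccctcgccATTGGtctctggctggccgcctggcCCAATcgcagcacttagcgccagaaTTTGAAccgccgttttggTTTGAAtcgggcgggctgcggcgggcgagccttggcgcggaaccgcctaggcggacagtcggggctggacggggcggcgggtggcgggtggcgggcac
Top2a: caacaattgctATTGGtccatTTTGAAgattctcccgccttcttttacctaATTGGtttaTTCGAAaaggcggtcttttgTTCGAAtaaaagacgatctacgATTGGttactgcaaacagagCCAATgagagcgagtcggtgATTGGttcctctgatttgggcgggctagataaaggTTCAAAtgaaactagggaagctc

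The arrays were of even quality. Between 32516 and 36274 probes were well above background per array, and arrays correlated at 0.970 or more across genes, at 0.985 or more within a group. For the tissue label, all 5 hepatocyte markers (Alb, Apoa1, Ttr, Cps1 and Serpina1c) were well above background on all 24 arrays. Each of 3 slides carried 2 mice of each of the 4 groups.

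Fasting against feeding on water asks what 24 hours without food do to the liver, and most of the measured members were lower in fasted mice. Of 43 members, 27 were lower, 2 were higher and 14 were not called at an adjusted p under 0.05 (limma over all 23966 genes, Benjamini-Hochberg). This stands against a background in which 42.6% of all genes were called, 20.9% lower and 21.7% higher. The groups did not overlap for 18 members that were lower in fasted mice, where 12% of all genes had lower values without overlap. The median log2 fold change of the members was -0.63, and that of all genes was 0.02. The members' median counts Bub1b, Kif11 and Tpx2, which were not well above background in any fasted mouse. In bulk liver RNA, fewer cells of a type and less RNA per cell cannot be told apart.

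**Figure D1:**
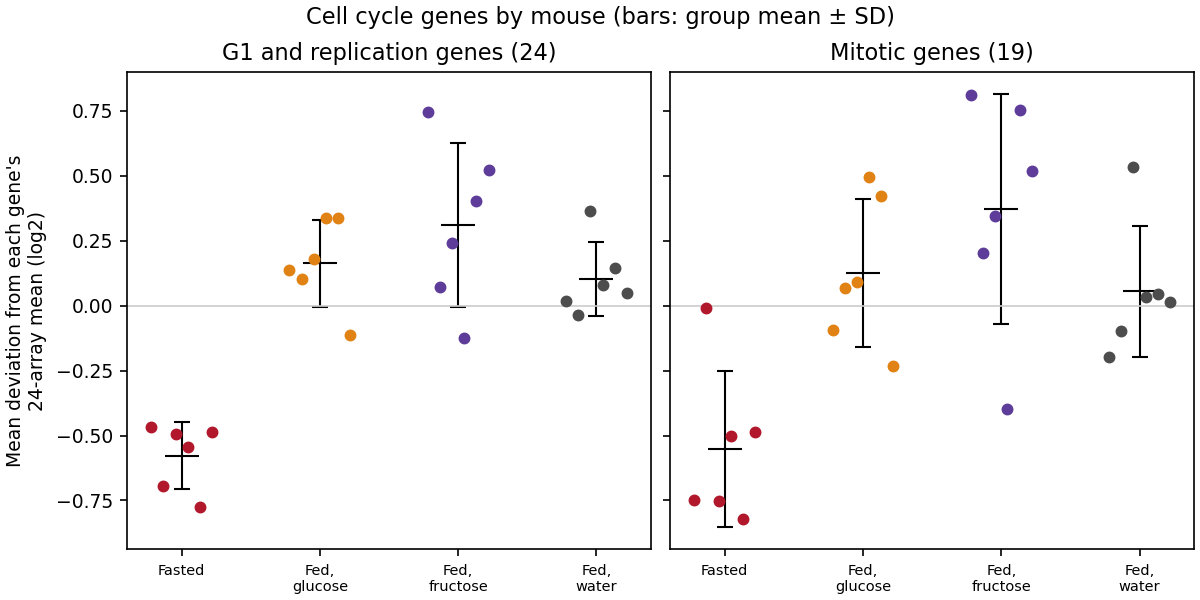
Mean deviation of the 24 G1 and replication members and of the 19 mitotic members from each gene's mean over 24 arrays (log2), 1 point per mouse, with group mean ± SD (n = 6). All 6 fasted mice lie below every fed mouse for G1 and replication genes, between -0.78 and -0.47, whereas 1 fasted mouse reaches -0.01 for mitotic genes and fructose-fed mice run from -0.40 to 0.81.

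Both classes were lower. Of 24 G1, replication and nucleotide members, 17 were lower and 1 was higher in fasted mice than in mice on water, with a median log2 fold change of -0.63. Of 19 mitotic members, 10 were lower and 1 was higher, with a median of -0.64. Fasted mice lay below mice on water without overlap for 14 of the 24 and for 4 of the 19 (all genes: 12%), and the difference between the classes was not tested. The mitotic median was -0.18 after normexp background correction and -0.23 in the authors' deposited table. Without fasted replicate 1, 6 mitotic members were lower in place of 10, and without fasted replicate 2 it was 11.

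Among G1 cyclins, Ccnd1 (cyclin D1, the usual first cyclin of cycle entry) moved most. Its probe lies at chr7:152116202-152116261 on the minus strand (mm9, the build of the array design). Its log2 signal ran from -0.13 to 0.55 with a median of 0.23 in fasted mice, from 2.27 to 2.49 (median 2.42) on glucose, from 1.69 to 3.18 (median 2.53) on fructose and from 1.93 to 2.61 (median 2.17) on water. Every fasted mouse lay below every fed mouse, and the fed groups overlapped. Ccnd1 was 4.04-fold lower in fasted mice than on water (log2 fold change -2.01 ± 0.18, SE, adjusted p = 3.44e-09). Ccnd2 (cyclin D2) behaved alike, at 1.24 to 1.87 (median 1.45) in fasted mice, 2.34 to 2.64 (median 2.54) on glucose, 2.27 to 2.56 (median 2.45) on fructose and 2.43 to 2.74 (median 2.57) on water. Again no fasted mouse reached a fed one, and the log2 fold change against water was -1.05 ± 0.10 (adjusted p = 7.02e-09).

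Ccnd3 (cyclin D3) went the other way. It ran from 3.97 to 4.41 (median 4.20) in fasted mice, from 3.67 to 3.87 (median 3.78) on glucose, from 3.87 to 4.09 (median 3.95) on fructose and from 3.82 to 4.13 (median 3.88) on water. Fasted mice were the highest group but overlapped with water, where replicate 3 alone reached 4.13. Ccnd3 was 1.23-fold higher in fasted mice than on water (log2 fold change 0.29 ± 0.07, adjusted p = 0.00162), and its 3 kept probes gave changes of 0.28 to 0.82. The D cyclins thus did not share a direction: Ccnd1 and Ccnd2 were lower and Ccnd3 was higher, and these 3 calls held with any array left out.

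Ccne1 (cyclin E1, which with Cdk2 starts S phase) ran from -2.17 to -0.17 (median -1.59) in fasted mice, from -0.48 to 0.69 (median 0.31) on glucose, from 0.49 to 1.14 (median 0.59) on fructose and from -0.20 to 0.73 (median -0.14) on water. Of the fasted mice, 1 alone (replicate 2, at -0.17) overlapped with water, and on water replicate 3 stood apart at 0.73. The log2 fold change against water was -1.47 ± 0.26 (adjusted p = 5.53e-05). E2f1 (an activating E2F factor) ran from -1.87 to -1.35 (median -1.65) in fasted mice, from -0.74 to -0.32 (median -0.46) on glucose, from -0.69 to -0.05 (median -0.39) on fructose and from -0.86 to -0.45 (median -0.62) on water. The fasted and fed mice did not overlap for E2f1, which was 1.99-fold lower in fasted mice than on water (adjusted p = 6.76e-08).

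The kinases themselves moved little. Cdk4, the partner of D cyclins, ran from 3.46 to 3.66 (median 3.55) in fasted mice, from 3.59 to 3.82 (median 3.63) on glucose, from 3.58 to 3.81 (median 3.68) on fructose and from 3.66 to 3.81 (median 3.75) on water. Its log2 fold change against water was -0.20 ± 0.05 (adjusted p = 0.00411). Cdk2, the partner of cyclins E and A, had a log2 fold change of -0.22 that was not called (95% interval -0.42 to -0.02, adjusted p = 0.0707). E2f8, a repressing E2F factor, was not called either, at -0.87 (95% interval -1.71 to -0.04). Of its dimmer probes, one gave -0.39 and was called (adjusted p = 0.0353, limma over all kept probes). The other gave -0.35 and was not called.

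**Figure D2:**
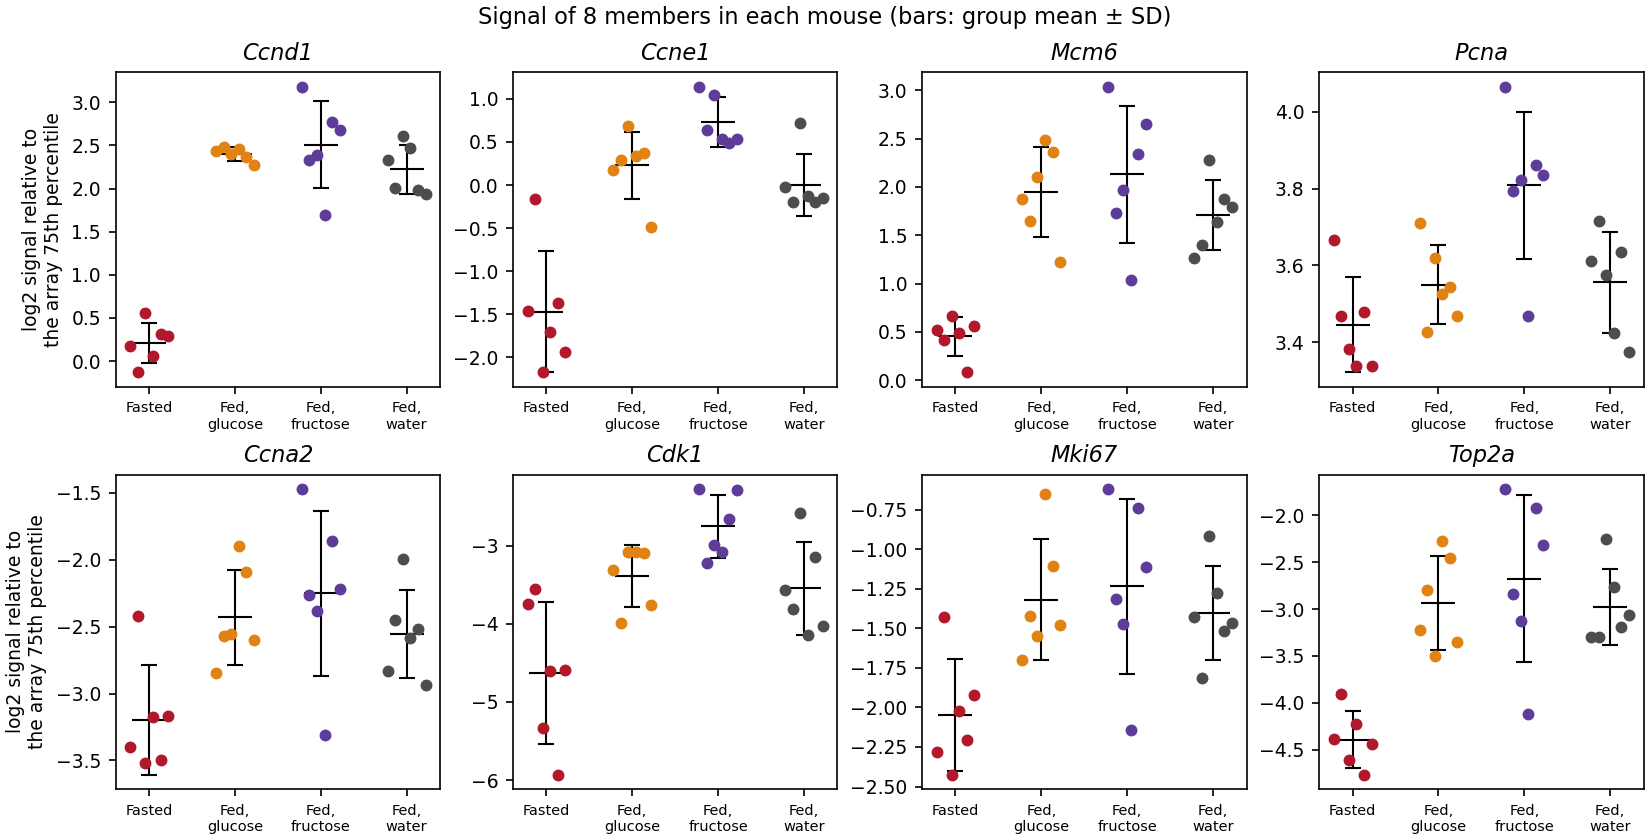
Log2 signal relative to the array's 75th percentile in each mouse for 8 members, with group mean ± SD (n = 6); each panel has its own axis. Fasted mice lie below all fed mice for Ccnd1 and Mcm6, overlap with fed mice for Ccne1, Ccna2, Cdk1 and Mki67, and share the range of mice on water for Pcna.

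All 6 measured genes Mcm2 to Mcm7 were called lower in fasted mice than on water, and in each of the other fasted comparisons. Mcm5 ran from -3.52 to -2.14 (median -2.85) in fasted mice, from -1.78 to -0.21 (median -0.85) on glucose, from -2.98 to 0.50 (median -0.57) on fructose and from -1.92 to -0.28 (median -1.08) on water. The fasted mice stayed below mice on glucose and water but overlapped with fructose, where the lowest mouse was at -2.98. Mcm5 was 3.28-fold lower in fasted mice than on water (log2 fold change -1.71 ± 0.45, adjusted p = 0.00341), and the change was -0.90 after normexp correction. Mcm6 ran from 0.08 to 0.66 (median 0.50) in fasted mice, from 1.23 to 2.48 (median 1.99) on glucose, from 1.04 to 3.04 (median 2.16) on fructose and from 1.26 to 2.28 (median 1.71) on water. No fasted mouse reached a fed one, and Mcm6 was 2.38-fold lower than on water (adjusted p = 0.000407).

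Mcm2, Mcm3 and Mcm4 followed. Mcm2 ran from -3.99 to -2.85 (median -3.24) in fasted mice, from -2.30 to -1.39 (median -1.94) on glucose, from -2.73 to -1.01 (median -1.88) on fructose and from -2.60 to -1.43 (median -2.16) on water. Mcm3 ran from -0.96 to -0.14 (median -0.59) in fasted mice, from 0.34 to 1.28 (median 0.60) on glucose, from 0.24 to 1.70 (median 0.75) on fructose and from 0.33 to 0.94 (median 0.51) on water. For both genes every fasted mouse lay below every fed mouse. The log2 fold changes against water were -1.19 ± 0.27 for Mcm2 (adjusted p = 0.00101) and -1.11 ± 0.23 for Mcm3 (adjusted p = 0.000317). That of Mcm2 was -0.50 after normexp correction. Mcm4 ran from -0.43 to 0.51 (median 0.13) in fasted mice, from 0.40 to 1.24 (median 0.93) on glucose, from 0.16 to 1.74 (median 1.11) on fructose and from 0.81 to 1.39 (median 0.91) on water. It separated from water alone among the fed groups, with a log2 fold change of -0.91 ± 0.23 (adjusted p = 0.00238). Mcm7 changed by -0.25 (adjusted p = 0.0385), a call lost in 13 of 23 alternatives.

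Other replication members were mixed. Lig1, the ligase that joins Okazaki fragments, was lower in fasted mice by -0.43 on the log2 scale without overlap with water (adjusted p = 0.00419). Prim1, the catalytic primase subunit, ran from -0.94 to 0.11 (median -0.34) in fasted mice, from -0.01 to 0.76 (median 0.54) on glucose, from 0.03 to 0.80 (median 0.52) on fructose and from -0.42 to 0.41 (median 0.05) on water. It overlapped with every fed group, and its call against water (log2 fold change -0.44 ± 0.17, adjusted p = 0.0436) was lost in 11 of 23 alternatives. Pcna, the sliding clamp of DNA polymerases, ran from 3.34 to 3.66 (median 3.42) in fasted mice, from 3.43 to 3.71 (median 3.54) on glucose, from 3.47 to 4.07 (median 3.83) on fructose and from 3.37 to 3.72 (median 3.59) on water. Fasted mice shared the range of mice on water, and Pcna was not called against them (log2 fold change -0.11, 95% interval -0.28 to 0.06). The licensing factor Cdt1, its inhibitor Gmnn and the helicase cofactor Gins1 were not called either, at -0.09, -0.09 and 0.21.

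All 4 nucleotide members were lower in fasted mice than on water, each without overlap. Rrm2, the regulated subunit of ribonucleotide reductase, ran from 1.83 to 2.09 (median 1.92) in fasted mice, from 2.97 to 3.51 (median 3.06) on glucose, from 2.50 to 3.66 (median 2.95) on fructose and from 2.14 to 2.95 (median 2.60) on water. Its partner subunit Rrm1 ran from -0.48 to -0.07 (median -0.36) in fasted mice, from 0.06 to 0.39 (median 0.22) on glucose, from 0.11 to 0.74 (median 0.41) on fructose and from -0.02 to 0.44 (median 0.20) on water. Fasted mice lay below all fed mice for both subunits, with log2 fold changes against water of -0.63 ± 0.16 for Rrm2 (adjusted p = 0.00203) and -0.50 ± 0.11 for Rrm1 (adjusted p = 0.000564). Tyms, thymidylate synthase, ran from 0.99 to 1.70 (median 1.54) in fasted mice, from 1.85 to 2.17 (median 1.93) on glucose, from 1.69 to 2.36 (median 2.06) on fructose and from 1.91 to 2.21 (median 2.09) on water. Its log2 fold change against water was -0.63 ± 0.11 (adjusted p = 9.30e-05). Of its dimmer kept probes, one gave -0.61 and was called (adjusted p = 8.15e-05, limma over all kept probes). The other gave -0.33 and was not called (adjusted p = 0.0518).

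Tk1, the salvage enzyme thymidine kinase, was highest in mice on water. It ran from 2.82 to 3.68 (median 3.39) in fasted mice, from 3.29 to 3.74 (median 3.42) on glucose, from 3.34 to 3.84 (median 3.65) on fructose and from 3.85 to 4.15 (median 3.95) on water. No mouse of the other 3 groups passed the lowest mouse on water, but the highest mouse on fructose (3.8448) all but equalled it (3.845). The log2 fold change against water was -0.65 ± 0.12 in fasted mice (adjusted p = 8.28e-05), -0.50 ± 0.12 on glucose (adjusted p = 0.0426) and -0.34 ± 0.12 on fructose, the last not called (adjusted p = 0.149). Fasted mice were not called different from mice on glucose for Tk1 (log2 fold change -0.15, 95% interval -0.39 to 0.09).

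**Figure D3:**
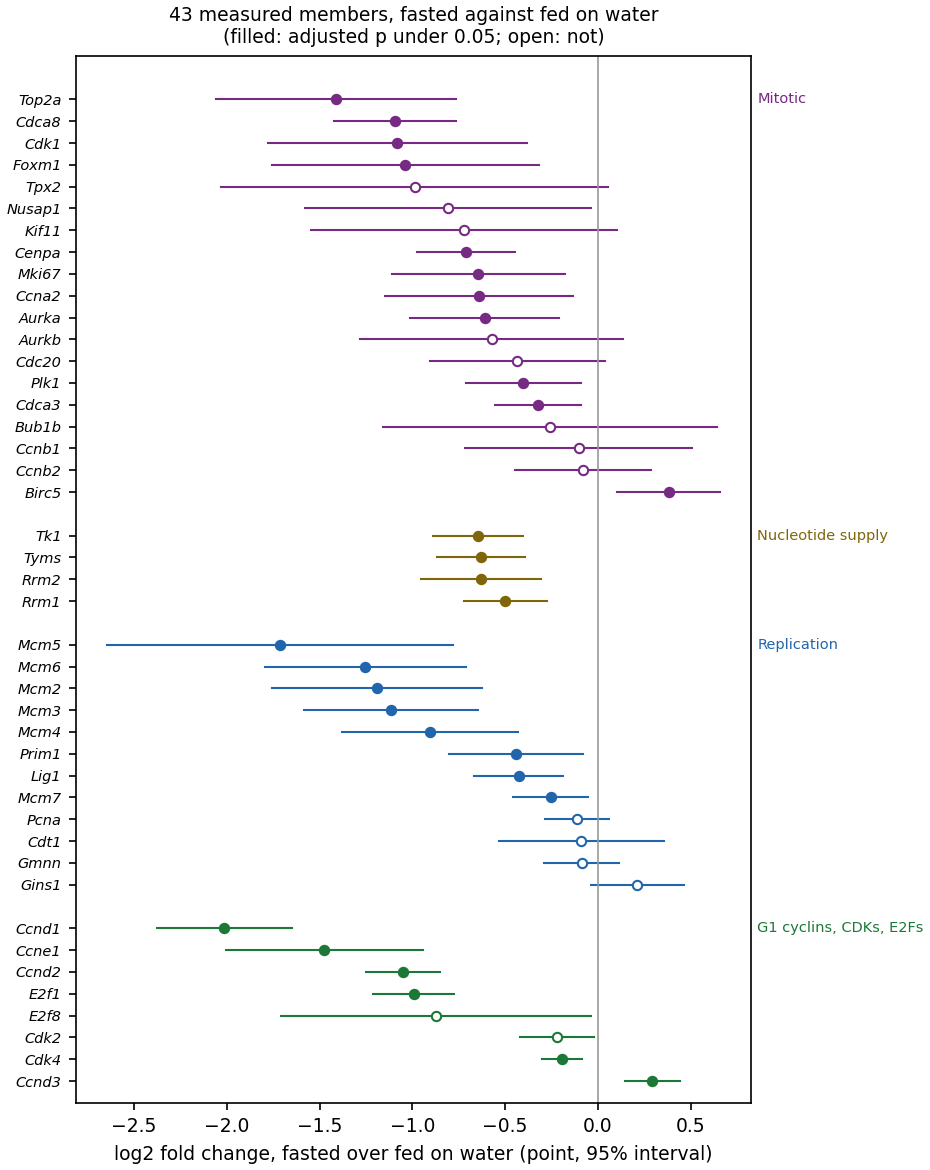
Log2 fold change with 95% interval in fasted mice over mice on water for the 43 measured members, by class; filled points passed an adjusted p under 0.05. Values run from -2.01 for Ccnd1 to 0.38 for Birc5, and 40 of 43 lie below 0. The 40 include Bub1b, well above background in 0 of 6 mice of each group, and Tpx2 and Kif11, in 0 of 6 fasted mice.

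The mitotic members led off with Top2a, topoisomerase II alpha, which untangles replicated chromosomes. It ran from -4.77 to -3.91 (median -4.42) in fasted mice, from -3.50 to -2.28 (median -3.01) on glucose, from -4.12 to -1.72 (median -2.58) on fructose and from -3.30 to -2.26 (median -3.13) on water. Fasted mice lay below mice on glucose and water and overlapped with 1 mouse on fructose. Top2a was 2.66-fold lower in fasted mice than on water (log2 fold change -1.41 ± 0.31, adjusted p = 0.000748), and the change was -0.46 after normexp correction. Cdca8 (borealin, of the chromosomal passenger complex) ran from -2.17 to -1.60 (median -1.83) in fasted mice, from -1.08 to -0.48 (median -0.72) on glucose, from -1.03 to 0.03 (median -0.45) on fructose and from -0.97 to -0.34 (median -0.82) on water. It had no overlap with any fed group and a log2 fold change of -1.09 ± 0.16 against water (adjusted p = 5.61e-06; -0.72 after normexp correction). Cenpa, the centromeric histone H3 variant, ran from -1.95 to -1.53 (median -1.90) in fasted mice, from -1.06 to -0.69 (median -0.88) on glucose, from -1.24 to -0.17 (median -0.59) on fructose and from -1.29 to -0.95 (median -1.07) on water. It too separated from every fed group, at -0.71 ± 0.13 against water (adjusted p = 7.17e-05).

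Cdk1, Foxm1, Mki67 and Ccna2 were called lower with overlap. Cdk1, the mitotic kinase, ran from -5.93 to -3.55 (median -4.60) in fasted mice, from -3.99 to -3.08 (median -3.20) on glucose, from -3.22 to -2.27 (median -2.83) on fructose and from -4.15 to -2.58 (median -3.69) on water. It was well above background in 4 of 6 fasted mice and in all fed mice, with a log2 fold change of -1.08 ± 0.34 against water (adjusted p = 0.0119). The change was -0.25 after normexp correction, and the call was lost in the fit of these groups alone (adjusted p = 0.0505). Foxm1, a transcription factor of late cycle genes, ran from -7.14 to -4.75 (median -5.38) in fasted mice, from -4.69 to -3.92 (median -4.32) on glucose, from -5.30 to -3.52 (median -3.96) on fructose and from -5.24 to -4.22 (median -4.56) on water. Only 1 fasted mouse was well above background for it, and its change of -1.04 ± 0.35 (adjusted p = 0.0184) was -0.13 and not called after normexp correction.

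Mki67, whose protein Ki-67 is the usual stain for dividing cells, ran from -2.43 to -1.43 (median -2.11) in fasted mice, from -1.70 to -0.65 (median -1.45) on glucose, from -2.14 to -0.62 (median -1.21) on fructose and from -1.81 to -0.92 (median -1.45) on water. Ccna2, cyclin A2, ran from -3.52 to -2.42 (median -3.28) in fasted mice, from -2.85 to -1.90 (median -2.56) on glucose, from -3.31 to -1.47 (median -2.24) on fructose and from -2.94 to -2.0 (median -2.55) on water. In both genes the highest fasted mouse was replicate 2, which lay within the range of every fed group. The log2 fold change against water was -0.64 for each, with adjusted p = 0.0239 for Mki67 and 0.0381 for Ccna2, and the call was lost in 3 and 13 of 23 alternatives. After normexp correction the changes were -0.39 for Mki67 and -0.30 for Ccna2. A second, dimmer Ccna2 probe gave -1.19 (adjusted p = 0.00642, limma over all kept probes). It was well above background in 1 of 6 fasted mice and 5 of 6 on water.

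Aurka and Plk1, kinases of spindle assembly, and Cdca3 were also lower in fasted mice, by -0.61, -0.40 and -0.32 on the log2 scale. The Plk1 call was lost in 9 of 23 alternatives and that of Cdca3 in 1, and their changes were -0.18 and -0.19 after normexp correction. Birc5 (survivin) was the mitotic member called higher, at 0.47 to 1.18 (median 0.79) in fasted mice, -0.25 to 0.32 (median -0.14) on glucose, -0.04 to 0.67 (median 0.14) on fructose and 0.14 to 0.78 (median 0.39) on water. Its log2 fold change against water was 0.38 ± 0.13 (adjusted p = 0.0246), but a second kept probe gave 0.02 and on 1 of 3 slides the change was -0.07. The B cyclins were not called: Ccnb1 changed by -0.10 (95% interval -0.72 to 0.51) and Ccnb2 by -0.08 (95% interval -0.44 to 0.29). Cdc20, Aurkb, Nusap1, Kif11, Tpx2 and Bub1b were not called. A second Cdc20 probe, well above background on all 24 arrays, was lower by -1.24 (adjusted p = 0.000471, limma over all kept probes). Cdc20 was also called lower under 4 of 23 alternatives. Tpx2 and Kif11 were well above background in 0 of 6 fasted mice and in 3 and 1 of 6 on water. Bub1b was well above background in 0 of 6 fasted mice and 0 of 6 on water, so no change is given for it.

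Of the 12 measured mitotic members with a CHR motif in the RefSeq window, 8 were lower in fasted mice than on water and 0 were higher. Of all genes, 20.9% were lower and 21.7% higher. The 12 include Bub1b and Kif11, which were not well above background in any fasted mouse. The 3 without one were Birc5, called higher by 1 of its 2 kept probes, and Ccnb1 (-0.10) and Nusap1 (-0.81), not called. In the G1 and replication class, 5 of 7 members with an E2F motif and 9 of 12 without one were lower. No test was run on these counts, which were looked at after the values were known.

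Most members were also lower in fasted mice than on each sugar. Against mice on glucose, 28 members were lower, 18 of them without overlap, and 3 were higher (all genes: 44.6% called, 21.9% lower and 22.6% higher, 12.5% lower without overlap), with medians of -0.60 for G1 and replication members and -0.77 for mitotic members. Against mice on fructose, 35 were lower, 16 of them with no overlap, and 3 were higher (all genes: 45.3% called, 21.9% lower and 23.4% higher, 11.6% lower without overlap), with medians of -0.75 and -0.94. The 3 comparisons share the fasted mice and are not independent. In all 3 of them 25 members were lower, 15 of 24 in the G1 and replication class and 10 of 19 mitotic, and Ccnd3 and Birc5 were higher. The share of all genes called in all 3 was not counted, so these counts have no background. Ccnb1, Cdc20, Cdt1, E2f8 and Tpx2 were called in none. Pcna was called against fructose (log2 fold change -0.36, adjusted p = 0.000988) and not against glucose (-0.10, adjusted p = 0.336), and Gins1 was called higher against glucose (0.51, adjusted p = 0.00147) and fructose (0.40, adjusted p = 0.00919). Kif11 and Bub1b, both among the 35, were dim in all fasted mice and passed the filter through fed mice only. With fasted signals raised to the array's lowest well-above-background level, they were 1.51-fold and 1.69-fold lower than on fructose. These are estimates from group means and not confidence limits. On fructose each was well above background in 4 of 6 mice. The highest mice were replicate 3 for Kif11 (-2.66) and replicate 5 for Bub1b (-2.37). Kif11 was also among the 28 called lower than on glucose (adjusted p = 0.0476, limma). On glucose it was well above background in 2 of 6 mice. With fasted signals raised in the same way, Kif11 was not lower than on glucose.

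The mice of a group did not move as one. Fasted replicate 2 had a mean mitotic deviation of -0.01 from the 24-array mean, against -0.82 to -0.49 in the other fasted mice, and was the highest fasted mouse for 10 of 19 mitotic members. For G1 and replication members the same mouse stood at -0.69 and was the lowest fasted mouse for 12 of 24. Its Ccnd1 (-0.13) and Mcm5 (-3.52) were the lowest of the fasted group, while its Ccnb2 (-0.70) and Plk1 (-2.48) were the highest by a wide gap. This mouse also had the highest mean deviation of the 24 mice for the 5 neutrophil markers (3.42) and for the 6 Kupffer cell markers (0.585). Fasted replicate 4 had 2.88 for the neutrophil markers and -0.50 for mitotic members. The part of these cells in the values of either mouse was not tested. On water, replicate 3 was the highest mouse for 14 of 24 G1 and replication members and for 14 of 19 mitotic members.

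Markers of other liver cell types were called in fasted mice against water at shares to be read against the 42.6% of all genes called. The shares were 33.3% for Kupffer cell, 37.5% for lymphocyte, 40% for neutrophil, 50% for erythroid, 60% for cholangiocyte, 66.7% for stellate and 80% for endothelial markers, each over 4 to 8 genes. Stellate cell markers were lower for 3 of 6 and higher for 1, with summed log2 levels of 4.50 to 8.86 in fasted mice, 8.53 to 11.6 on glucose, 9.66 to 11.8 on fructose and 8.95 to 10.98 on water. Cholangiocyte markers were lower for 3 of 5, with summed levels of -10.9 to -5.10 in fasted mice, -8.24 to -3.804 on glucose, -7.92 to -3.51 on fructose and -7.69 to -3.36 on water. Lymphocyte markers were lower for 3 of 8 measured (sums of -12.9 to -9.15 in fasted mice, -11.7 to -7.67 on glucose, -13.7 to -9.63 on fructose and -11.8 to -8.38 on water). Neutrophil markers were higher for 1 and lower for 1 of 5, with sums of -17.8 to 5.81 in fasted mice, -15.9 to -9.51 on glucose, -16.0 to -12.0 on fructose and -14.2 to -10.7 on water. Kupffer cell markers were higher for 2 of 6 (sums of 14.2 to 18.0 in fasted mice, 12.4 to 17.0 on glucose, 11.2 to 14.2 on fructose and 12.9 to 15.8 on water), endothelial markers higher for 3 and lower for 1 of 5, and erythroid markers lower for 2 of 4 measured. The part of other cell types in the members' changes was not tested.

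Genes that hold cells out of the cycle were tested around the members. Of 8 CDK inhibitors, 4 were higher and 2 lower in fasted mice than on water, with a median log2 fold change of 0.19 (all genes: 21.7% higher and 20.9% lower, median 0.02). Cdkn1a (p21), a CDK inhibitor induced by p53 and other signals, ran from 3.8 to 4.88 (median 4.34) in fasted mice, from -0.40 to 2.51 (median 0.36) on glucose, from -0.39 to 1.80 (median 0.22) on fructose and from -0.93 to 1.60 (median 0.81) on water. It had no overlap and a log2 fold change of 3.71 ± 0.44 against water (adjusted p = 3.46e-07). Cdkn2b (p15) was lower by -1.03, Cdkn2a by -0.98, a dim gene, and Cdkn1c (p57) was higher by 0.46. Of 13 antiproliferative and p53-related genes, 10 were higher and 2 lower, with a median of 0.59. Gadd45b and Gadd45g (growth arrest genes) were higher by 2.96 and 2.55 on the log2 scale and Ccng2 (cyclin G2, an atypical cyclin linked to quiescence) by 2.08, while Gadd45a was lower by -2.0.

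Pocket proteins, other E2F factors and MuvB subunits were split, with 6 higher and 5 lower of 16 (68.8% called). Of all genes 42.6% were called, 21.7% higher and 20.9% lower. E2f2 (an activating E2F) changed by -1.86 (adjusted p = 6.57e-06), Rbl1 (p107) by -1.36 (adjusted p = 3.50e-07) and Lin9 (a MuvB subunit) by -0.996 (adjusted p = 1.87e-06). Rbl2 (p130), the pocket protein of resting cells, was higher by 0.65 (adjusted p = 1.34e-06). Among 15 measured mitogen genes and inputs to the cycle, 2 were higher and 3 lower, a called share of 33.3%, below that of all genes. Mycn changed by -3.30, Egfr by -1.33 and Cdk6 by -0.43, and Fos by 1.28 and Ccnl1 by 0.63.

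Replication and mitotic genes outside the members can be read against the 20.9% of all genes that were lower and the 21.7% that were higher. Of 37 measured other replication genes, 23 were lower and 1 was higher in fasted mice (median -0.43), led by the flap nuclease Fen1 (-2.04, adjusted p = 1.42e-11), Uhrf1 (a reader of hemimethylated DNA, -1.83), Pole2 (a subunit of DNA polymerase epsilon) and Rfc3 (a clamp loader subunit, -1.19). Of 27 measured other mitotic genes, 12 were lower and 4 were higher (median -0.35), led by Cdca5 (sororin, -1.69), Ncapg (a condensin subunit), Aspm (-1.44) and Ect2 (-0.96). Pole2 and Ncapg were not well above background in any fasted mouse and passed the filter through fed mice only. With fasted signals raised to the array's lowest well-above-background level, they were 1.67-fold and 2.40-fold lower. These are estimates from group means and not confidence limits. Of 9 measured histone genes and their partners, 6 were lower, led by Hist1h2ab (-1.69), Hist1h1b (-1.13), Hist1h2ae (-0.94) and H2afx (-0.80). Genes of the histone cluster are near copies of one another, so these probes may read several of them.

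**Figure D4:**
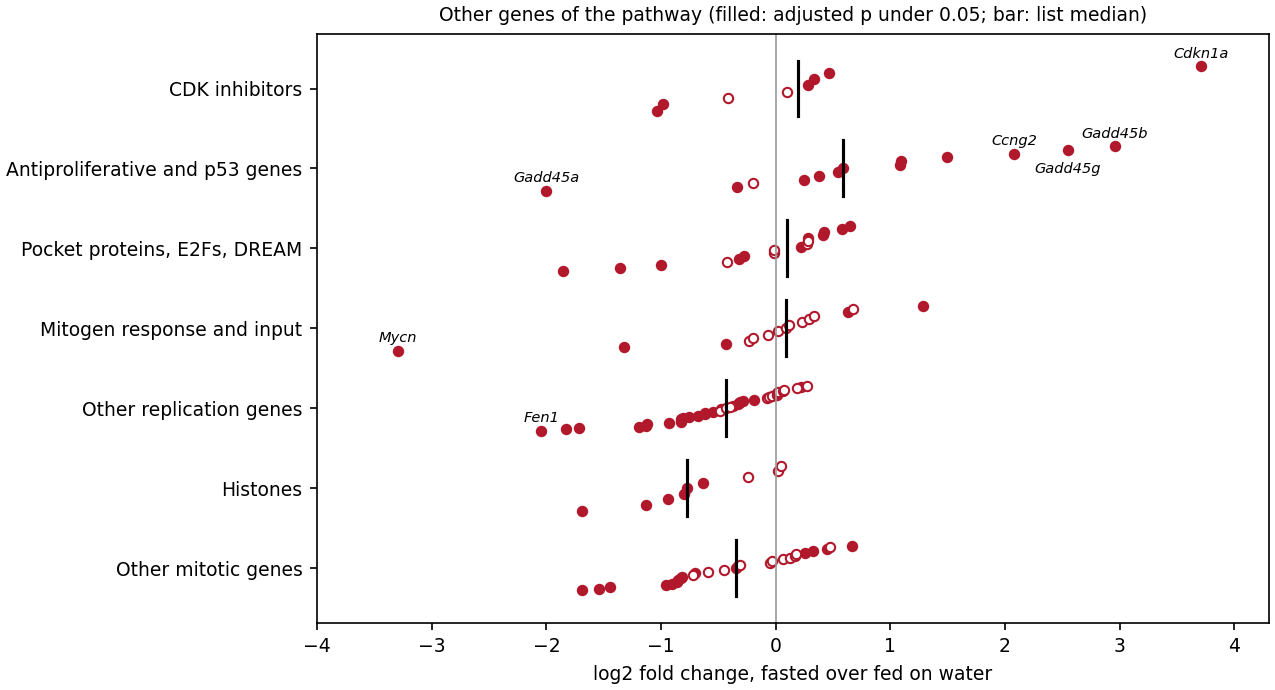
Log2 fold change in fasted mice over mice on water for 7 lists of genes around the members, 1 point per measured gene, filled where the adjusted p is under 0.05, with the list median as a bar. The list medians are 0.19 for CDK inhibitors, where Cdkn1a stands apart at 3.71, 0.59 for antiproliferative genes, -0.43 for other replication genes, -0.78 for histones and -0.35 for other mitotic genes.

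Sugar in the drinking water of fed mice asks whether the members respond to glucose or fructose on top of chow. Against water, glucose changed 1 of 43 members, Tk1, which was lower (all genes: 0.83% called, 0.421% lower and 0.409% higher). Its values are given above. The call was lost without any 1 of the 6 mice on water and without any 1 of glucose replicates 1 to 5, with adjusted p between 0.0590 and 0.102. The medians were 0.10 for G1 and replication members and 0.05 for mitotic members, and 27 of 43 members lay above 0 (all genes: 48.5%). The 27 include Bub1b, which was well above background in 0 of 6 mice on water. Rrm2 was higher on glucose than on water without overlap (log2 fold change 0.59, 95% interval 0.27 to 0.92) but not called (adjusted p = 0.0768). Birc5 was at -0.51 (95% interval -0.78 to -0.23, adjusted p = 0.0782).

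Against water, fructose changed 1 of 43 members, Cdk2, which was higher (all genes: 0.88% called, 0.501% higher and 0.38% lower). Cdk2 ran from -1.79 to -1.25 (median -1.66) in fasted mice, from -1.24 to -1.01 (median -1.20) on glucose, from -1.15 to -0.67 (median -0.87) on fructose and from -1.44 to -1.23 (median -1.35) on water. Mice on fructose lay above all mice on water and overlapped with mice on glucose. Cdk2 was 1.35-fold higher on fructose than on water (log2 fold change 0.43 ± 0.10, adjusted p = 0.0364), with within-slide changes of 0.38, 0.38 and 0.54. This call was lost without replicate 1, 3 or 6 on fructose and without replicate 1, 2, 4, 5 or 6 on water, with adjusted p between 0.0592 and 0.104. On glucose the change against water was 0.19 and not called (95% interval -0.01 to 0.39).

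Of the 43 members, 34 lay above 0 on fructose against water (all genes: 47%) and 15 had an unadjusted p under 0.05 (all genes: 15.9%), with Cdk2 alone called. Both counts include Bub1b and Kif11, each well above background in 4 of 6 mice on fructose. On water Bub1b was well above background in 0 of 6 mice and Kif11 in 1 of 6. Bub1b passed the filter through mice on sugar only. Here the medians were 0.26 for G1 and replication members and 0.27 for mitotic members, where all genes had -0.01. Ccne1 was at 0.73 (95% interval 0.20 to 1.26, adjusted p = 0.158), Cdk1 at 0.79 (95% interval 0.09 to 1.49, adjusted p = 0.246) and Cenpa at 0.46 (95% interval 0.20 to 0.72, adjusted p = 0.0756). The mice on fructose differed widely among themselves. Replicate 1 was the highest of the group for 19 of 24 G1 and replication members and 11 of 19 mitotic members, and replicate 4 the lowest for 15 and 14. The slides differed in sign: the median mitotic change was -0.44, 0.34 and 0.80 on the 3 slides and that of the other class was -0.10, 0.24 and 0.56.

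Fructose against glucose gave 0 called members by limma, with 5 at an unadjusted p under 0.05 (all genes: 7.8%), and 0 called among all genes (0%). Those 5 were Pcna (0.26, 95% interval 0.09 to 0.43), Cdt1 (0.50), Birc5 (0.32), Cdk2 (0.25) and Ccnd3 (0.18). The medians were 0.13 for G1 and replication members and 0.20 for mitotic members, and 40 of 43 lay above 0 (all genes: 49.6%). On the slides the mitotic median was -0.35, 0.03 and 0.91.

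**Figure D5:**
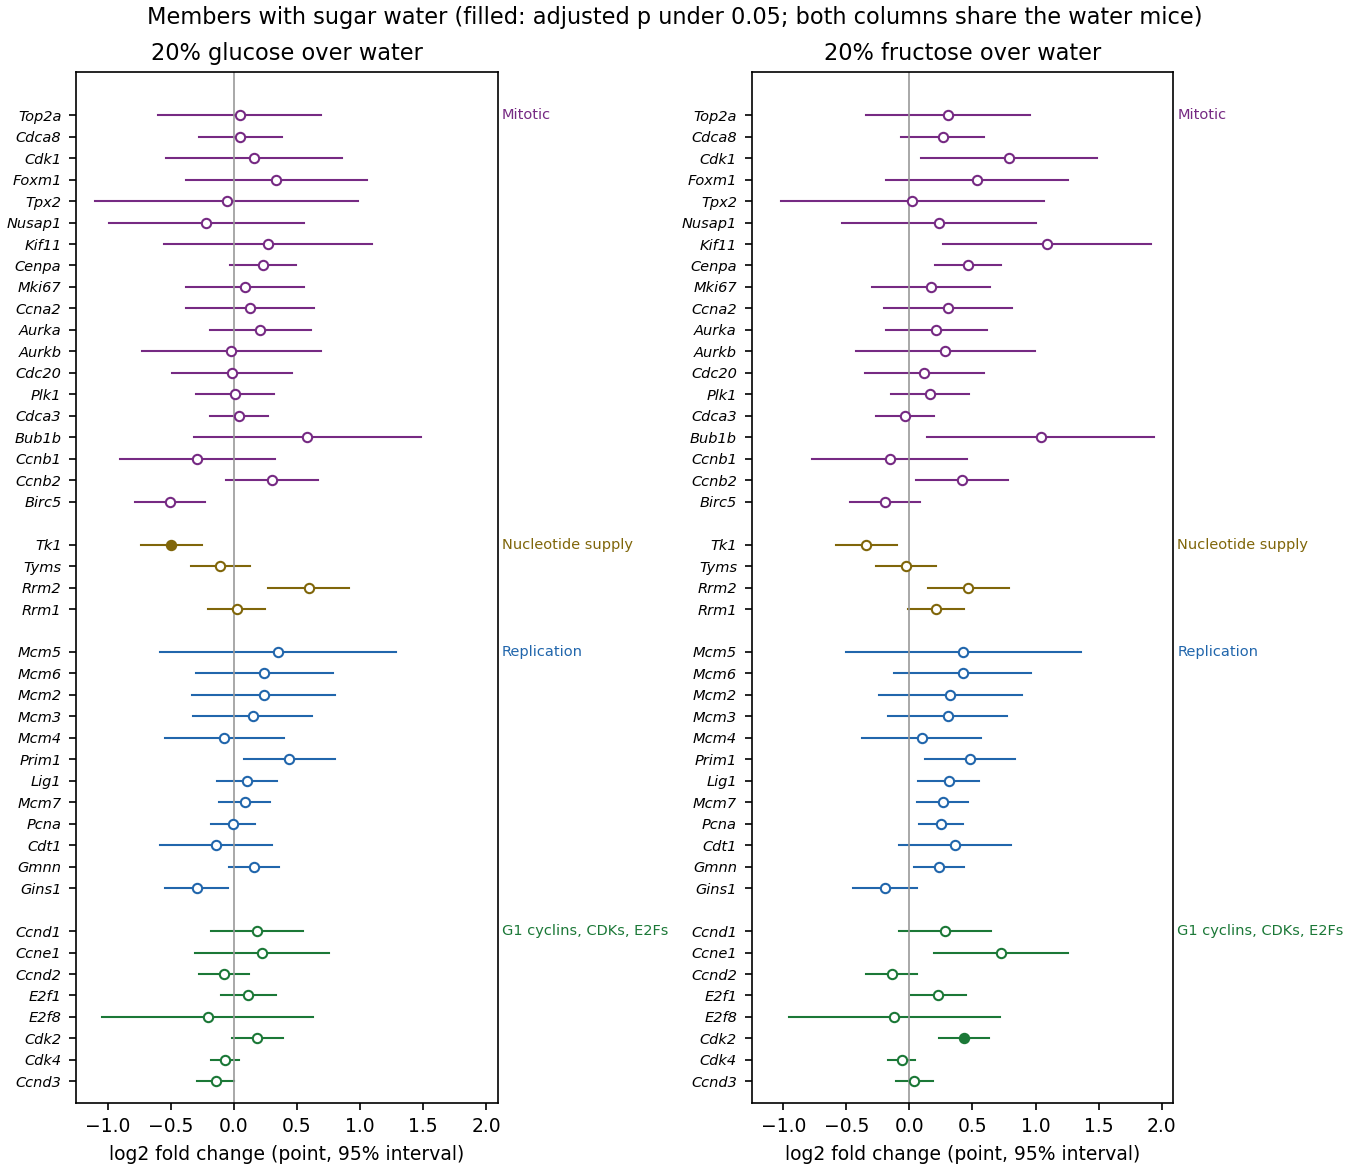
Log2 fold change with 95% interval of the 43 measured members on 20% glucose over water (left) and on 20% fructose over water (right); filled points passed an adjusted p under 0.05, and both panels share the mice on water. One member is filled in each panel, Tk1 at -0.50 on the left and Cdk2 at 0.43 on the right.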

How the data were processed

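Liver RNA of 24 mice was measured on 24 arrays. Per the file headers, the authors scanned them with Agilent Feature Extraction 10.10.1.1, and each file holds, per spot, an intensity that was background-subtracted within the array and not normalized between arrays. A series table in log2 units was also deposited by the authors, with its normalization not stated in the sources used here, and served as an alternative.

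Control spots and outlier flags were left out. The processed intensity was taken to log2 and the array's 75th percentile subtracted. Repeat spots were averaged per probe. Probes were kept if well above background on at least 6 of 24 arrays, and a gene was read from its brightest kept probe. Of 17 members with several kept probes, none had probes of opposed sign in fasted mice against water. The 4 group means were fitted to 23966 genes with limma 3.58.1 (R 4.3.3), with Benjamini-Hochberg adjustment within each comparison and a threshold of 0.05. Errors are standard errors of the fit. The steps were tested on simulated data. The number of arrays limits the precision. The members and lists were chosen with earlier results of these data known. Per-mouse values were given for the largest changes of each class among members called in fasted mice against water, up to 6 per class, for members called between fed groups and for 8 preset genes. Of each other list, up to 4 called genes with the largest change were named. Some genes outside these rules are named too, chosen after their values were seen.

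Replicate numbers were not used to pair the mice in the main fit. The slide, a replicate block, normexp correction, quantile and median scaling, filters, probe choice, array weights, fits of 2 groups and each array left out were tried.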

Additional observations from a re-analysis of the deposited data

Results flagged for a closer look

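In 12 of 172 sets of 6 mice (1 member in 1 group), the highest or lowest mouse lay further from the rest than Dixon's 95% limit allows. Chance gives about 1 in 20.

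Fasted replicate 2 was high for Ccna2 (-2.42), Ccnb2 (-0.70) and Plk1 (-2.48), all mitotic genes, on the log2 scale relative to the array's 75th percentile. Replicate 3 on water was high for Ccne1 (0.73), Ccnd3 (4.13) and Cdca8 (-0.34), 1 of them mitotic. Among the other flags in fasted mice, Cdca3 was high in replicate 4 (-2.0). On glucose, Birc5 was high in replicate 4 (0.32). On fructose, Kif11 was high in replicate 3 (-2.66), Gmnn was low in replicate 2 (2.48) and Plk1 was low in replicate 4 (-2.90). On water, Bub1b, a dim gene, was low in replicate 2 (-6.76).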

How the results depend on the processing

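Of the 29 members called in fasted mice against water, 20 kept the call under every alternative and none changed sign. The calls lost most often were those of Ccna2, Mcm7, Prim1 and Plk1, each of them lost without replicate 3 on water among others. That of Birc5 was lost with the mean of kept probes and without fasted replicate 4 or replicate 1 or 4 on water. The Foxm1 call was lost after normexp correction, in the authors' deposited table, in the fit of 2 groups alone and without fasted replicate 1 or 4. That of Mki67 was lost without fasted replicate 1 or 3 or replicate 3 on water. The call of Cdca3 was lost without replicate 6 on water, and that of Cdk1 in the fit of 2 groups alone. The mitotic median was -0.18 against water, -0.19 against glucose and -0.21 against fructose after normexp correction, and -0.23, -0.27 and -0.42 in the authors' deposited table. The cause was not tested. The members that moved by over 1.5 times include Mcm2 and Mcm5, as given above, and not only mitotic genes. The G1 and replication median against water moved less than the mitotic median under both settings. With the mean of kept probes, the G1 and replication median of fasted mice against glucose was -0.76. Members called on glucose against water numbered 2 with normexp, the authors' table and array weights, and 0 with quantile scaling, median centring, no filter on dim probes, the mean of probes and the replicate block. On fructose against water they numbered 2 with normexp and array weights, and 0 with median centring, no filter and a fit of those 2 groups alone.

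With each array left out in turn, the members called numbered 24 (without replicate 3 on water) to 31 (without fasted replicate 2) in fasted mice against water, 28 to 31 against glucose and 32 to 39 against fructose, 0 to 1 for glucose against water, 0 to 4 for fructose against water (0 without fructose replicate 1, 4 without fructose replicate 4) and 0 to 0 for fructose against glucose. The G1 and replication median ran from -0.66 to -0.57, -0.69 to -0.52 and -0.87 to -0.65 in fasted mice against water, glucose and fructose, from 0.05 to 0.13 for glucose and 0.16 to 0.32 for fructose against water, and from 0.04 to 0.24 for fructose against glucose. The mitotic median ran from -0.76 to -0.54, -0.85 to -0.66 and -1.10 to -0.80 in fasted mice, from -0.04 to 0.19 for glucose and 0.15 to 0.41 for fructose against water, and from 0.11 to 0.36 for fructose against glucose.

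Deviations of same-numbered mice of different groups correlated at -0.174 to 0.219 (mean 0.034). Those of mice with different numbers correlated at -0.245 to 0.257 (mean -0.007). The numbers were not used as a pairing, and low correlations do not show that there was none. With the replicate block, 27 members were called in fasted mice against water in place of 29, and the calls of Ccna2 and Mcm7 there and of Tk1 on glucose were lost.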
